A study of Mus musculus with 8 samples.

Results

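Cholesterol genes were examined on 8 arrays, each from the striatum of 1 mouse: 4 R6/2 animals and 4 wild-type controls. The set was a list of 31 genes for cholesterol synthesis, the regulation of sterol levels and sterol transport. It was chosen by function, with earlier results of these data known, and matched by gene symbol. Of the 31, 29 had a probe set annotated to that gene alone, out of 18193 genes measured in all. Acat2 and Nr1h2 were listed but had no such probe set under their name and were not analysed here. The R6/2 transgene encodes the start of human huntingtin with a long CAG repeat, and these mice model Huntington's disease with a truncated protein rather than the full-length one. Animals of both genotypes were female, of strain C57Bl/6 / CBA and 12 weeks (85 days) old. The design text names 5 wild-type mice, 1 more than were analysed here. The labels number each mouse separately, and spread is therefore spread between animals: 42, 48, 54 and 63 were wild-type, and 64, 65, 70 and 78 were R6/2. Per-mouse values below follow this order.

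The brain makes nearly all of its own cholesterol, because lipoproteins do not cross the blood-brain barrier, and much of it goes into myelin and synaptic membranes. Synthesis runs from acetyl-CoA through mevalonate and isoprenoid units to squalene, is closed into a ring as lanosterol, and is trimmed to cholesterol in a series of further steps. When membrane sterol is low, the escort protein Scap carries the SREBP transcription factors, encoded by Srebf1 and Srebf2, to the Golgi for cleavage, and the cleaved factors switch on the genes of synthesis; the Insig proteins hold Scap back when sterol is plentiful. Surplus cholesterol leaves through efflux transporters controlled by the liver X receptors, or, in neurons, is hydroxylated by Cyp46a1 and crosses into the blood.

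SREBP acts at promoters together with the CCAAT-binding factor NF-Y, so the promoters of the 6 genes called lower in R6/2 mice in all 18 alternative analyses are printed here. They come from RefSeq (GRCm38.p6) and cover 250 bases before and 50 after the annotated start, read 5′ to 3′ on the gene's strand. Hmgcs1 lies at chr13:119690101-119690400 (plus strand), Idi1 at chr13:8885356-8885655 (plus), Msmo1 at chr8:64733529-64733828 (minus), Insig1 at chr5:28071162-28071461 (plus), Srebf2 at chr15:82147019-82147318 (plus) and Cyp46a1 at chr12:108334066-108334365 (plus). Capitals mark exact matches, on either strand, to ATTGG or CCAAT (the CCAAT box), to TCACNCCAC (a form of the sterol regulatory element, with N any base) and to CACGTG (an E-box). No base lay in more than 1 match.
Hmgcs1: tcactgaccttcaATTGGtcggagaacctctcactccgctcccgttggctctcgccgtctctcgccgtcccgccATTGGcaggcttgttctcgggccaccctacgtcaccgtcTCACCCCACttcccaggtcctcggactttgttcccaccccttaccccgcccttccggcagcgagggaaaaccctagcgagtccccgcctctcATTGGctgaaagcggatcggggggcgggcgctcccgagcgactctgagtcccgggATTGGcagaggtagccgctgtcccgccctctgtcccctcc
Idi1: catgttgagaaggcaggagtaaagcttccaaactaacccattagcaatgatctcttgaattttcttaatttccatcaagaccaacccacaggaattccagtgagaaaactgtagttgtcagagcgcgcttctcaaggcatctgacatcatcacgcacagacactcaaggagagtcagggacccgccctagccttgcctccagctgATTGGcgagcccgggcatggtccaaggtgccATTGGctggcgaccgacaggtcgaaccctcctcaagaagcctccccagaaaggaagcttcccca
Msmo1: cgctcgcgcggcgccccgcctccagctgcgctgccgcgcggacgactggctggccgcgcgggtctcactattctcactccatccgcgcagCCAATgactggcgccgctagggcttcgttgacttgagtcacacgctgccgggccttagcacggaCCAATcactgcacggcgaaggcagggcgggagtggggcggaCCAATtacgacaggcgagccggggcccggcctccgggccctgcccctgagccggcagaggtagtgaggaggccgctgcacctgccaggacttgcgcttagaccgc
Insig1: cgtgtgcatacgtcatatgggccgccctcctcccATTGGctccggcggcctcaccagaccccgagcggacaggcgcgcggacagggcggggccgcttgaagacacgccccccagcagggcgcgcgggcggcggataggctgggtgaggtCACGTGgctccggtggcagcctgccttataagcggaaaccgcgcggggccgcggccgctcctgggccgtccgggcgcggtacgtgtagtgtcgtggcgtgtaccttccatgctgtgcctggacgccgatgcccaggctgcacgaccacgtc
Srebf2: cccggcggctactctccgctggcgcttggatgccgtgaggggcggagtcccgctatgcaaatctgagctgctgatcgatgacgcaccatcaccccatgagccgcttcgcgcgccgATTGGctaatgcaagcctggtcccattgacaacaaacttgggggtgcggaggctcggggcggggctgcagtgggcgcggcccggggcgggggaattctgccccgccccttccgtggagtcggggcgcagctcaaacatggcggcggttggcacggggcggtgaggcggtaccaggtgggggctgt
Cyp46a1: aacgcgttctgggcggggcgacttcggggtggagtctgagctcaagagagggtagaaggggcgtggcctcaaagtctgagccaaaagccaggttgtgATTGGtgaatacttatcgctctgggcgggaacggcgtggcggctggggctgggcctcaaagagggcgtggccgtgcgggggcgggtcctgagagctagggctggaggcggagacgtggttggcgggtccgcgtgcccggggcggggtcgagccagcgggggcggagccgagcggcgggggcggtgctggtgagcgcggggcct

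The Hmgcs1 window held the sterol regulatory element form, starting 137 bases before the start, and 4 CCAAT boxes. Msmo1 held 3 CCAAT boxes, Idi1 held 2, and Srebf2, Insig1 and Cyp46a1 held 1 each, with an E-box 101 bases before the start of Insig1. Windows were given for 23 of the 29 genes, 34 windows in all. A CCAAT box was in 21 of these windows (61.8%), against 37.4% of all 32851 windows of the same length, and the sterol regulatory element form was in 1 (2.94%), against 1.24%. The E-box was in 6 (17.6%), against 7.15%. By gene, a CCAAT box was present for 20 of the 23. It was present for all 8 genes lower in R6/2 mice that had a window and for all 3 that were higher. A match so common in the set cannot separate these directions. These are letter matches and not measured binding sites.

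In R6/2 striatum, transcripts of several cholesterol synthesis enzymes were lower, and so were the transcripts of the SREBP gene that drives cholesterol synthesis, Srebf2, of its sterol-responsive regulator Insig1 and of the neuronal cholesterol hydroxylase Cyp46a1. Of the 29 genes, Msmo1, which takes part in sterol demethylation, fell most, by 1.69-fold. Srebf1, the SREBP gene tied mainly to fatty acid synthesis, rose, as did Insig2, Lss and the lysosomal cholesterol exporter Npc1. All changes were modest, between 1.25-fold (Insig2) and 1.69-fold. In all, 9 genes fell and 4 rose, and the other 16 missed the threshold (limma, Benjamini-Hochberg adjusted p under 0.05 over all 18193 genes; such a gene is said to be called). The called genes made up 44.8% of the 29, against 15.3% of all genes. The 9 falls compare with 6.19% of all genes called lower, and the 4 rises (13.8%) with 9.09% called higher. All of the 29 except Nr1h3 were brighter than the dimmest 40% of genes. Without those dim genes, 10 cholesterol genes were called lower and 4 higher, against 1137 and 1840 of 10916 genes. The rises were thus not set apart from genes of similar brightness. The list was chosen with earlier results of these data known, so these shares do not test it. The median log2 difference, R6/2 minus wild-type, was -0.14 over the 29 genes and -0.0034 over all genes. The values of R6/2 and wild-type mice did not overlap for any of the 13 called genes and overlapped for the 16 others; groups did not overlap for 19.4% of all genes, lower in R6/2 for 7.67% and higher for 11.7%. The count of falls was 7 to 9 when any 1 array was left out. The count of rises was less stable: it was 0 without R6/2 mouse 70 or 78, 1 without wild-type mouse 48 or 63, and 2 without wild-type mouse 54 or R6/2 mouse 64.

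**Figure D1:**
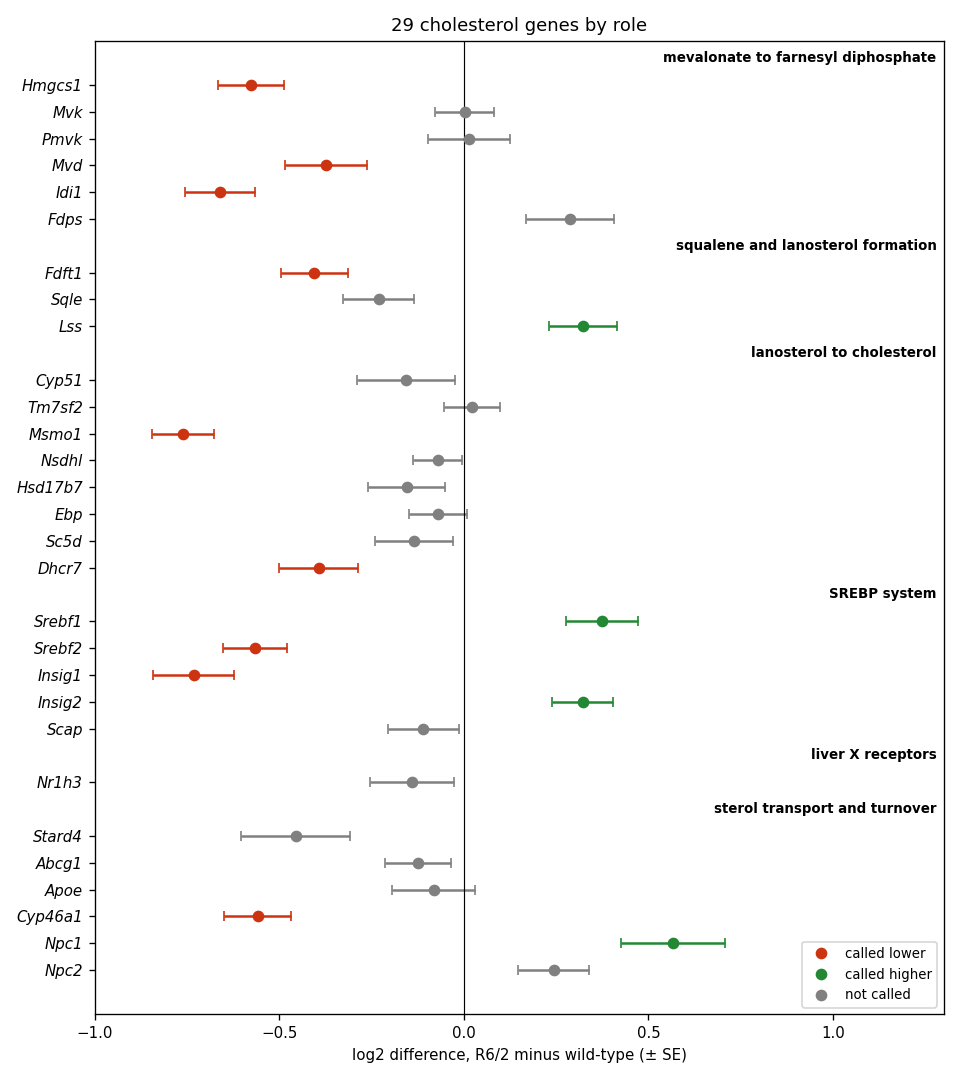
Points on the x axis are log2 differences, R6/2 minus wild-type, with standard errors, for each of the 29 genes, grouped by role; colour marks genes called lower, called higher or not called at an adjusted p of 0.05. The 9 falls lie among the enzymes, the SREBP system and Cyp46a1, from -0.76 for Msmo1 to -0.37 for Mvd, and the 4 rises lie between 0.32 and 0.57.

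Of 6 measured enzymes that lead from acetyl-CoA to farnesyl diphosphate, 3 fell and none rose. Hmgcs1 makes HMG-CoA, the substrate of the rate-limiting step of the pathway. Its log2 values were 11.21, 10.96, 10.94 and 11.08 in wild-type mice and 10.52, 10.51, 10.56 and 10.30 in R6/2 mice. Every R6/2 mouse lay below every wild-type mouse, and the difference was -0.58 ± 0.088 (log2, SE, n = 4 each, adjusted p = 0.00235), a 1.49-fold fall. Hmgcs1 had 5 probe sets, and the 4 others fell as well, by 0.55 to 0.64 (adjusted p between 0.00171 and 0.0208 over all 45037 probe sets, of which 10.1% were called), including one that was dim, at a mean of 4.15. The adjusted p of every other probe set given below is also over all probe sets, which was stricter for these genes than adjustment over genes.

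Idi1, which interconverts the isoprenoid building blocks, stood at 8.38, 7.98, 8.16 and 8.34 in wild-type and at 7.56, 7.64, 7.48 and 7.53 in R6/2 mice. The R6/2 mice lay close together and clear of the wild-type mice, with a difference of -0.66 ± 0.096 (SE, adjusted p = 0.00179), or 1.58-fold. A dimmer probe set of Idi1 differed by a similar amount, -0.65 ± 0.26, but varied more between mice and did not pass (adjusted p = 0.155). Mvd, the decarboxylase that makes isopentenyl diphosphate, was at 6.03, 6.11, 5.86 and 5.86 in wild-type and at 5.72, 5.33, 5.81 and 5.52 in R6/2 mice. The groups were only just apart, R6/2 mouse 70 lying just below the lowest wild-type value, and the fall of 0.37 ± 0.11 was near the threshold (adjusted p = 0.0468). It was lost without any array except that of R6/2 mouse 70, with an adjusted p from 0.0564 without wild-type mouse 63 to 0.125 without wild-type mouse 48. The Mvd probe set is of a kind (_s_at) that can detect more than 1 transcript, and the other one differed by -0.26 ± 0.11 (adjusted p = 0.164). Adjusted over all probe sets in the same way, the chosen Mvd probe set did not pass either (limma, adjusted p = 0.0647).

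The kinases Mvk and Pmvk, which add phosphates to mevalonate, showed almost no difference: Mvk was 0.0028 ± 0.080 and Pmvk 0.013 ± 0.11 (log2 difference, SE). Their signs were opposite in some alternatives. Fdps, which joins isoprenoid units into farnesyl diphosphate, went the other way from Hmgcs1 and Idi1. It was at 7.21, 7.52, 7.59 and 7.69 in wild-type and at 7.90, 7.57, 7.95 and 7.73 in R6/2 mice, where R6/2 mouse 65 overlapped the wild-type range (0.29 ± 0.12, adjusted p = 0.131).

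The next 3 enzymes lead through squalene to lanosterol, and they did not move together: 1 fell, 1 rose and 1 did not pass. Fdft1, squalene synthase, was at 9.32, 9.03, 9.24 and 9.12 in wild-type and at 8.93, 8.68, 8.83 and 8.66 in R6/2 mice. The groups did not overlap, and the fall was 0.40 ± 0.092 (SE, adjusted p = 0.0154), or 1.32-fold. A probe set nearly as bright fell by 0.41 ± 0.090 (adjusted p = 0.0182), while the dim ones, at means of 4.73 and 4.14, differed by -0.23 and -0.045 (adjusted p = 0.277 and 0.788). Sqle, squalene epoxidase, differed by -0.23 ± 0.096 (adjusted p = 0.138): R6/2 mice 65, 70 and 78 lay between 7.82 and 7.87, below all wild-type mice, and mouse 64 was inside the wild-type range at 8.12.

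Lss, lanosterol synthase, was at 6.58, 6.61, 6.55 and 6.25 in wild-type and at 6.87, 6.81, 6.89 and 6.71 in R6/2 mice. The rise of 0.32 ± 0.092 (adjusted p = 0.0389) rested on this probe set. A probe set of nearly the same brightness, which can detect more than 1 transcript (_s_at), differed by -0.12 ± 0.098 (adjusted p = 0.513) and a dim one by 0.076 ± 0.091 (adjusted p = 0.664). Adjusted over all probe sets in the same way, the chosen Lss probe set did not pass either (limma, adjusted p = 0.0535). With the mean of all its probe sets Lss differed by 0.094 (adjusted p = 0.372), and the call was lost without any array except that of wild-type mouse 42 (adjusted p from 0.0501 without R6/2 mouse 78 to 0.104 without R6/2 mouse 70).

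Of 8 measured enzymes that turn lanosterol into cholesterol, 2 fell (25.0%, against 6.19% of all genes) and 6 did not pass. Msmo1, the methylsterol oxidase that removes methyl groups from the sterol ring, changed most of all 29 genes. Its values were 9.37, 9.28, 9.27 and 9.33 in wild-type and 8.68, 8.59, 8.59 and 8.34 in R6/2 mice. The gap between the groups, from 8.68 to 9.27, was wider than the spread within either, and the difference was -0.76 ± 0.084 (SE, adjusted p = 0.000456). Another probe set of Msmo1 fell by 0.40 ± 0.089 (adjusted p = 0.0193), at a mean of 3.66 that lay within the range of 9 probe sets of Y-linked genes (2.77 to 3.67), which have no template in female mice.

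Dhcr7, which carries out the last reduction in one branch of the pathway, was at 8.35, 8.36, 8.57 and 8.53 in wild-type and at 8.22, 7.78, 8.18 and 8.05 in R6/2 mice. All R6/2 mice lay below the wild-type mice, mouse 65 by the most, and the fall was 0.39 ± 0.11 (adjusted p = 0.0314). The call was lost without wild-type mouse 48 (adjusted p = 0.0558), 54 (0.0778) or 63 (0.0685) or without R6/2 mouse 65 (0.0553) or 78 (0.0700). The other enzymes of this stage showed small differences: Cyp51, the lanosterol demethylase, differed by -0.16 ± 0.13, Hsd17b7 by -0.15 ± 0.10, Sc5d, a desaturase, by -0.14 ± 0.11, Nsdhl by -0.071 ± 0.067, Ebp by -0.070 ± 0.080 and the reductase Tm7sf2 by 0.023 ± 0.076. Their adjusted p ranged from 0.361 for Hsd17b7 to 0.879 for Tm7sf2. Other probe sets had the opposite sign in Cyp51 (0.21 ± 0.15), in Hsd17b7 (0.079 and 0.13) and in Sc5d (0.13 and 0.11), with an adjusted p of at least 0.443. A p above the threshold does not show that these enzymes were equal between genotypes.

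Over all 17 measured synthesis enzymes, 6 fell (35.3%, against 6.19% of all genes), 1 rose and 10 did not pass, with a median of -0.15. The mean of the 17 log2 values, each set against its wild-type mean, lay between -0.075 and 0.046 in wild-type mice and was -0.085, -0.29, -0.15 and -0.26 in R6/2 mice. R6/2 mouse 64 was thus close to the wild-type range and mouse 65 farthest from it. The mean level of cortical projection neuron markers put the R6/2 mice in the same order, at -0.12, -1.19, -0.62 and -1.05, but not the wild-type mice, at 0.32, 0.065, -0.63 and 0.24. This likeness in order was not tested. The 9 cholesterol genes called lower had means of -0.47, -0.62, -0.52 and -0.63 in R6/2 mice, with mouse 78 lowest rather than 65. With the cortical marker mean as a covariate, Hmgcs1, Idi1 and Msmo1 were still called lower, and Mvd, Fdft1 and Dhcr7 were not (adjusted p = 0.477, 0.178 and 0.258).

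**Figure D2:**
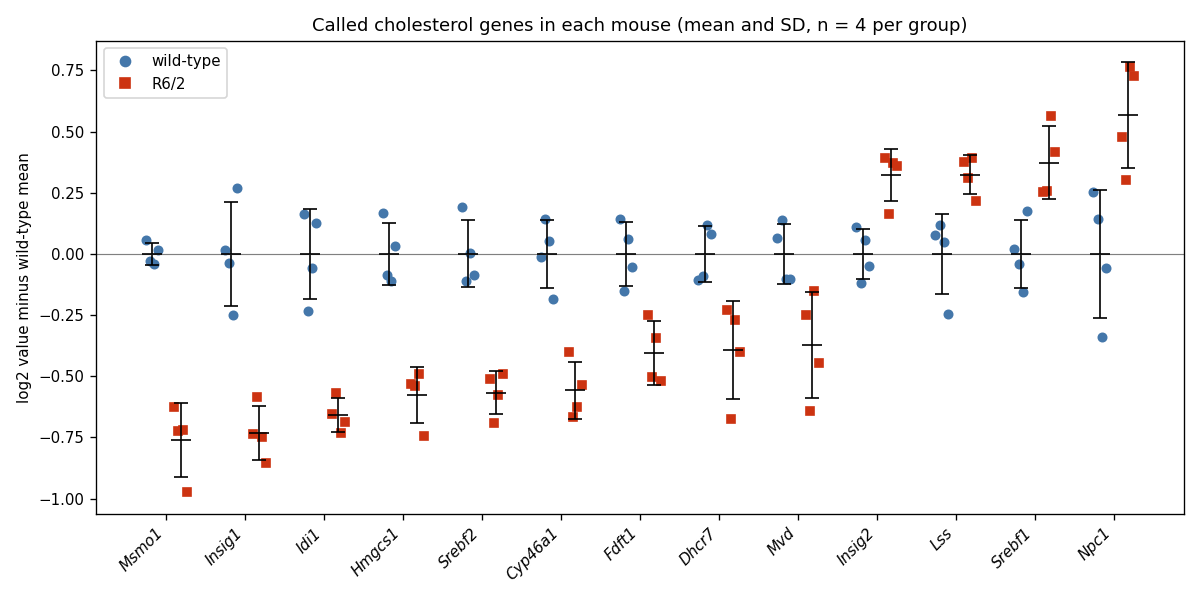
For each of the 13 called genes, points give the log2 value of each mouse minus the wild-type mean of that gene (circles wild-type, squares R6/2), with the mean and SD of each group (n = 4 each). No R6/2 square overlaps the circles of its gene; Msmo1, Insig1 and Idi1 fell most, by 0.76, 0.73 and 0.66, and Npc1 rose most, by 0.57.

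In the system that senses sterol and drives synthesis, 2 of 5 genes fell and 2 rose: Srebf2 and Insig1 were lower, and their relatives Srebf1 and Insig2 were higher. Srebf2, whose protein acts mainly on cholesterol synthesis, was at 9.21, 8.90, 9.02 and 8.93 in wild-type and at 8.50, 8.32, 8.44 and 8.52 in R6/2 mice. The groups were well apart, with a fall of 0.57 ± 0.086 (SE, adjusted p = 0.00228), or 1.48-fold. Another probe set of Srebf2 moved the same way but did not pass over all probe sets (-0.40 ± 0.11, adjusted p = 0.0531), where the chosen one did (limma, adjusted p = 0.00402). Srebf1, whose protein acts mainly on fatty acid synthesis, was at 8.59, 8.53, 8.41 and 8.74 in wild-type and at 8.82, 8.83, 9.13 and 8.98 in R6/2 mice. The groups were separate but close, and the rise was 0.37 ± 0.098 (adjusted p = 0.0282), lost without wild-type mouse 48 (adjusted p = 0.0752) or 54 (0.0701) or R6/2 mouse 70 (0.0801) or 78 (0.0695).

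Insig1 encodes the retention protein whose own gene is switched on by SREBP, and it was at 6.89, 6.83, 6.63 and 7.14 in wild-type and at 6.14, 6.29, 6.12 and 6.02 in R6/2 mice. It fell by 0.73 ± 0.11 (adjusted p = 0.00205), or 1.66-fold, with all R6/2 mice well below the wild-type mice. Insig2, the related retention protein, was at 8.62, 8.40, 8.57 and 8.47 in wild-type and at 8.91, 8.68, 8.89 and 8.88 in R6/2 mice. It rose by 0.32 ± 0.082 (adjusted p = 0.0254), with R6/2 mouse 65 nearest to the wild-type mice. Its other probe sets were higher by 0.50 ± 0.084 (adjusted p = 0.00576) and 0.32 ± 0.097 (adjusted p = 0.0649), and in both all R6/2 mice lay above all wild-type mice. The call of Insig2 was lost without wild-type mouse 48 (adjusted p = 0.0762) or 63 (0.0520) or R6/2 mouse 64 (0.0699), 70 (0.0730) or 78 (0.0652). Scap, the SREBP escort, differed by -0.11 ± 0.096 (adjusted p = 0.495), with overlapping groups.

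Nr1h3, the measured liver X receptor, was the dimmest of the 29 genes, at a mean of 5.01, and differed by -0.14 ± 0.11 (adjusted p = 0.454). Of the efflux and lipoprotein genes among the 29 that liver X receptors control, Abcg1, an exporter of cholesterol to lipoprotein particles, differed by -0.12 ± 0.089 (adjusted p = 0.394). The exporter gene Abca1, which is not among the 29, rose by 0.63 ± 0.11 (adjusted p = 0.00402), as given below. Apoe, the main lipid-carrying apolipoprotein of the brain, differed by -0.082 ± 0.11 (adjusted p = 0.679). It ranged from 11.73 to 12.31 in wild-type mice and only from 11.96 to 12.04 in R6/2 mice.

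Cyp46a1, the neuronal enzyme that hydroxylates cholesterol for removal from the brain, was at 10.74, 10.89, 10.80 and 10.57 in wild-type and at 10.35, 10.08, 10.12 and 10.21 in R6/2 mice. The groups did not overlap, and it fell by 0.56 ± 0.091 (SE, adjusted p = 0.00316), or 1.47-fold. In RNA from whole tissue, fewer cells of a type and less RNA per cell cannot be told apart.

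Npc1, the membrane protein that moves cholesterol out of lysosomes, was at 7.12, 7.01, 6.53 and 6.81 in wild-type and at 7.34, 7.17, 7.63 and 7.59 in R6/2 mice. It rose by 0.57 ± 0.14 (adjusted p = 0.0229), or 1.48-fold, with R6/2 mouse 65 just above wild-type mouse 42. The call was lost without wild-type mouse 63 (adjusted p = 0.0505) or R6/2 mouse 70 (0.0706) or 78 (0.0631). Npc2, its soluble partner in the lysosome, differed in the same direction by 0.24 ± 0.097, but the groups overlapped (adjusted p = 0.121); a second bright probe set differed by 0.26 ± 0.11 (adjusted p = 0.178) and the dimmer ones by -0.13 and -0.093.

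Stard4, a soluble carrier that moves sterol between membranes, was at 7.41, 7.48, 7.77 and 7.82 in wild-type and at 7.46, 7.37, 6.87 and 6.97 in R6/2 mice. R6/2 mice 70 and 78 were low and mouse 65 lay just below the lowest wild-type value, while mouse 64 was inside the wild-type range, which gave -0.45 ± 0.15 (adjusted p = 0.0636). Without R6/2 mouse 64 it passed (-0.55, adjusted p = 0.0410). Other probe sets of Stard4 differed by -0.18 and -0.13 (adjusted p = 0.236 and 0.746).

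**Figure D3:**
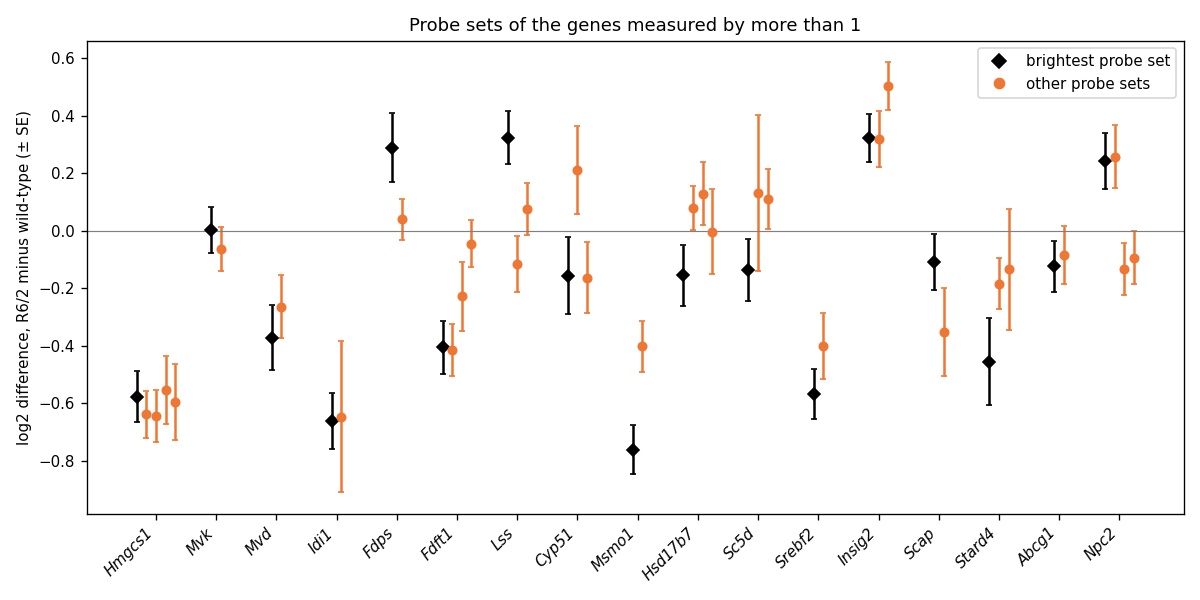
For the 17 genes with more than 1 probe set, each probe set is plotted on the y axis by its log2 difference, R6/2 minus wild-type, with its standard error, with the brightest, which stands for the gene, as a black diamond. All 5 probe sets of Hmgcs1 lie between -0.55 and -0.64, whereas those of Lss lie on both sides of 0, from -0.12 to 0.32.

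Among the 15 further probe sets of the 13 called genes, 7 were called in the same direction, 1 (of Lss) had the opposite sign and none was called in the opposite direction. Most of the 7 were of Hmgcs1, and the rest were of Fdft1, Insig2 and Msmo1, that of Msmo1 in the range of the Y-linked genes. Of all probe sets, 10.1% were called. Cyp46a1, Dhcr7, Insig1, Npc1 and Srebf1 had no further probe set.

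The stability of the calls was examined in 18 alternatives, 8 of which left out 1 array. Hmgcs1, Idi1, Msmo1, Srebf2, Insig1 and Cyp46a1 were called lower in all 18, with an adjusted p of at most 0.0457. Fdft1 was called in 16, and missed the threshold without moderation of the variances (adjusted p = 0.0532) and with the mean level of cortical neuron markers as a covariate (adjusted p = 0.178). The other called genes passed in 13 (Npc1), 12 (Srebf1), 10 (Insig2 and Dhcr7) and 6 (Lss and Mvd) of the 18.

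**Figure D4:**
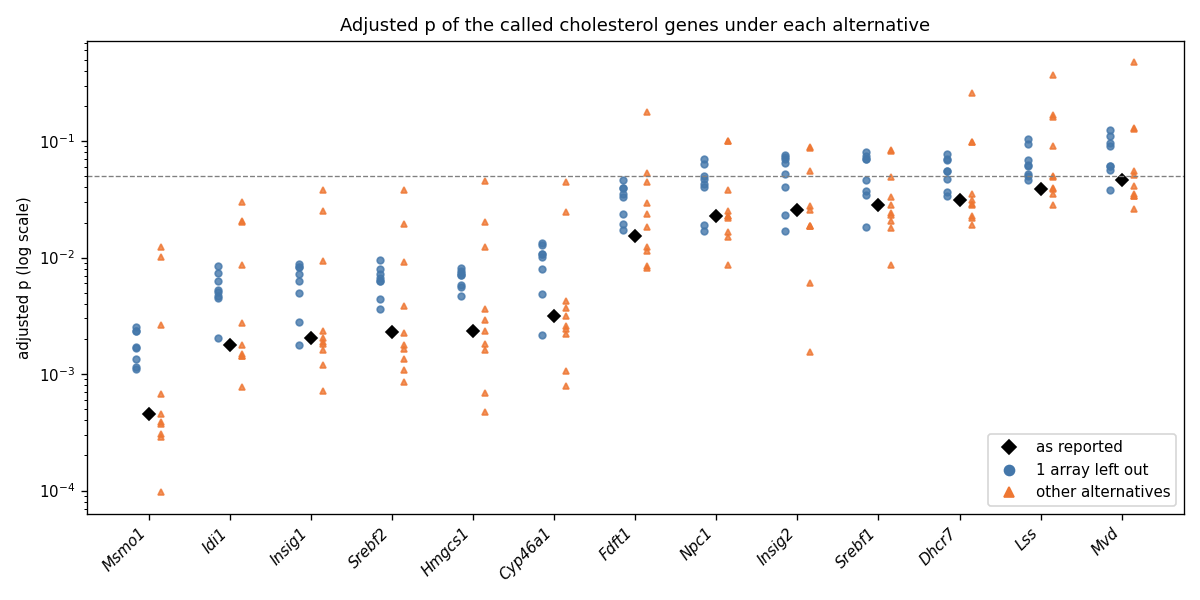
The y axis (log scale) gives the adjusted p of each called gene as reported (diamonds), with 1 array left out (circles) and under the other alternatives (triangles); the dashed line is 0.05. All points of Msmo1, Idi1, Insig1, Srebf2, Hmgcs1 and Cyp46a1 lie below the line, while Lss and Mvd were called in 6 of 18 alternatives.

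Other genes of sterol and lipid metabolism were taken from a list of 65 genes, 58 of which were measured. Of these, 6 fell, 6 rose and 46 did not pass (10.3% in each direction, against 6.19% and 9.09% of all genes), with a median of 0.034. Without the dimmest 40% of genes, 8 of this list were called lower and 7 higher, against 1137 and 1840 of 10916 genes. Among 9 further genes for the synthesis of cholesterol and its control, the proteases that cleave SREBP in the Golgi moved apart. Mbtps1, which makes the first cut, fell by 0.29 ± 0.076 (log2, SE, adjusted p = 0.0304), and Mbtps2, which makes the final one, rose by 0.31 ± 0.083 (adjusted p = 0.0315). Lbr, a sterol reductase of the nuclear membrane that can act in place of Tm7sf2, rose by 0.45 ± 0.089 (adjusted p = 0.00779), with no overlap between 6.59 to 6.82 in wild-type and 7.06 to 7.35 in R6/2 mice. The calls of Mbtps1 and Mbtps2 were near the threshold: that of Mbtps1 was lost if any 1 R6/2 mouse, or wild-type mouse 48 or 54, was left out (adjusted p from 0.0576 to 0.0806), and that of Mbtps2 if R6/2 mouse 64, 65 or 70, or either of the same wild-type mice, was left out (0.0592 to 0.0919). Dimmer probe sets of Mbtps1 differed by -0.21 and 0.0098 (adjusted p = 0.249 and 0.956). With the cortical marker mean as a covariate, the calls of Lbr, Mbtps1 and Mbtps2 were lost (limma, adjusted p = 0.0988, 0.0732 and 0.138).

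Of 6 genes of the isoprenoid branches, Dhdds, a subunit of the enzyme that makes dolichol precursors from farnesyl diphosphate, rose by 0.52 ± 0.11 (adjusted p = 0.0110), and 5 did not pass. The 1 rise (16.7%) compares with 9.09% of all genes called higher. A further probe set of Dhdds rose by 0.79 ± 0.20 (adjusted p = 0.0349) and another differed by -0.063 ± 0.068 (adjusted p = 0.621). Of 12 fatty acid genes known as SREBP targets, 3 fell (25.0%, against 6.19% of all genes), none rose and 9 did not pass. Fads1, a fatty acid desaturase, fell from a wild-type mean of 10.03 to values between 9.53 and 9.75 in R6/2 mice (-0.42 ± 0.070, adjusted p = 0.00373), and Gpam, which starts glycerolipid synthesis, fell by 0.38 ± 0.068 (adjusted p = 0.00528). Fasn, fatty acid synthase, fell by 0.27 ± 0.081 (adjusted p = 0.0492), a call lost without any 1 of the 8 arrays (adjusted p from 0.0526 without R6/2 mouse 64 to 0.106 without wild-type mouse 48). A dim second probe set of Gpam differed by 0.0045 (adjusted p = 0.989), and one of Fads1 by -0.28 ± 0.19 (adjusted p = 0.408). With probe sets averaged, the calls of Fads1 and Gpam were lost (limma, adjusted p = 0.0564 and 0.124). They were also lost with the cortical marker mean as a covariate (0.0584 and 0.0760), as was that of Fasn (0.452).

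Of 10 lipoprotein and uptake genes, Apod, a lipocalin that carries small lipids in glia, rose by 0.67 ± 0.11 (adjusted p = 0.00297) and Lcat, which esterifies cholesterol on lipoproteins, fell by 0.42 ± 0.085 (adjusted p = 0.00913). A dimmer probe set of Apod differed by 0.24 ± 0.11 (adjusted p = 0.231). The call of Lcat was lost with the cortical marker mean as a covariate (limma, adjusted p = 0.143). Of 16 genes for efflux, ester formation and intracellular carriers, the cholesterol exporter gene Abca1 rose and Osbpl8, a lipid carrier at membrane contacts, fell. Abca1 was at 8.88, 9.08, 8.84 and 9.25 in wild-type and at 9.45, 9.65, 9.68 and 9.79 in R6/2 mice, without overlap (0.63 ± 0.11, adjusted p = 0.00402), while Abcg1 differed by -0.12. Osbpl8 fell by 0.68 ± 0.11 (adjusted p = 0.00348). Of 5 oxysterol and bile acid enzymes, Hsd3b7 rose by 0.46 ± 0.11 (adjusted p = 0.0190), which missed the threshold once R6/2 mouse 64 (adjusted p = 0.0548) or 70 (0.0595) was left out. Of all genes, 6.19% were called lower and 9.09% higher, so 1 call in lists this small does not set them apart.

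Marker genes of the cell types in the tissue moved with genotype too. Their counts stand beside 6.19% of all genes called lower and 9.09% called higher. Striatal projection neuron markers fell in 9 of 10 measured genes, with a median of -0.94. Of the brightest, the neuropeptide gene Penk, which marks neurons of the indirect pathway, fell by 1.29 ± 0.088 (adjusted p = 4.4e-05). Ppp1r1b fell by 0.92 ± 0.090 (adjusted p = 0.000236), while Tac1 differed by only 0.021 ± 0.091 (adjusted p = 0.908). Astrocyte markers, from the cells that make much of the adult brain's cholesterol, fell in 7 of 14, with a median of -0.29, and their mean level against wild-type lay between -0.33 and -0.19 in R6/2 and between -0.11 and 0.21 in wild-type mice. Among 15 oligodendrocyte markers, the myelin genes and their partners, 3 fell and 12 did not pass, with a median of -0.18. Their mean level overlapped between genotypes (R6/2 -0.26 to -0.10, wild-type -0.17 to 0.28), and the members did not share a direction: the difference was above 0 in 6 of the 15. Of the brightest, Mobp fell by 0.38 ± 0.078 (adjusted p = 0.00957), Mbp differed by -0.18 ± 0.072 (adjusted p = 0.121) and Cnp by 0.19 ± 0.083 (adjusted p = 0.166). Of 8 endothelial markers 5 fell, with a median of -0.39 and mean levels of -0.47 to -0.30 in R6/2 mice, below the -0.12 to 0.15 of wild-type mice. None of 13 microglial and none of 7 oligodendrocyte progenitor markers was called by limma over all genes, with an unadjusted p under 0.05 for 3 and 2 of them. The part of these markers in the differences of the cholesterol genes was not tested, apart from the fits with a marker mean as a covariate given next.

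Cortical projection neuron markers varied widely within both groups, with the mean levels given beside the enzymes. They also leaned lower in R6/2 mice: 3 of 12 were called lower (25.0%, against 6.19% of all genes), with a median of -0.68, and 0 had a difference above 0. The unadjusted limma p was under 0.05 for 9 of them. The cortical mean thus varied partly with genotype. With the cortical mean as a covariate, 6 cholesterol genes were called lower and 1 higher (Npc1), and with the oligodendrocyte mean 8 were lower and 1 higher (Srebf1). Markers of the ependyma and choroid plexus overlapped between the groups (wild-type -0.66 to 0.78, R6/2 -0.58 to 1.10), with 1 of 10 lower and 1 higher. They nevertheless leaned higher in R6/2 mice, with a median of 0.58 and a difference above 0 in 9 of the 10. Their mean level varied widely within both groups. It was -0.31, 0.19, -0.66 and 0.78 in wild-type mice and -0.58, 1.10, 0.83 and 0.61 in R6/2 mice. Signs of RNA quality also differed: the signal from the 3′ end of the Gapdh control minus that from its 5′ end was 1.19, 0.52, 0.50 and 0.41 (log2) in wild-type and 0.23, 0.34, 0.35 and 0.28 in R6/2 mice. Without wild-type mouse 42, which had the highest value, 8 cholesterol genes were called lower and 4 higher. The other wild-type mice still lay above all R6/2 mice in this signal. Its part in the differences therefore cannot be told apart from that of genotype. Array medians lay between 5.08 and 5.13 and correlations between arrays between 0.983 and 0.994.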

How the data were processed

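Per the labels' protocols, total RNA of each striatum was biotin-labelled with an Affymetrix kit, 1 array per mouse. The authors deposited log2 values per probe set; RMA and affy are the tools named in the submitters' processing notes. RMA corrects background, normalizes between arrays and combines the probes of a set, and it compresses differences of dim sets; 41.3% of probe sets had identical values on some arrays. Which arrays shared a normalization is not stated in the labels. Precision is limited by having 4 arrays per group.

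Of 45101 probe sets, 64 controls were left out. The platform annotation gave 34945 a single symbol (34741 found in RefSeq by Entrez ID), 932 several and 9160 none. A gene is represented by its brightest probe set over the 8 arrays. Differences (R6/2 minus wild-type, with moderated standard errors) and p-values came from limma 3.58.1 in R 4.3.3, fitted to all genes at once without covariates, with Benjamini-Hochberg adjustment over 18193 genes, or over 45037 probe sets for other probe sets. Fold is 2 raised to the size of the difference. Plots used Python 3.11.15 and matplotlib 3.10.9.

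The cholesterol genes and all lists were chosen with earlier results of these data known. All measured cholesterol genes are named, with every called gene of the 65 others, at most 3 markers per cell type (the brightest), and a cholesterol gene's other probe sets where sign or call differed. Alternatives were quantile normalization, median centring, omission of the dimmest 40% of genes, averaging a gene's probe sets, omission of _s_at and _x_at sets, trended robust moderation, no moderation, array weights, a cortical or oligodendrocyte marker mean as covariate, and omission of each array.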

Additional observations from a re-analysis of the deposited data

Results flagged for a closer look

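Of 58 groups of 4 mice (29 genes, both genotypes), 3 held a mouse far from the rest by Dixon's test at the 95% level, where chance flags about 1 in 20. Sqle in R6/2 mouse 64 was 8.12, against 7.82 to 7.87 in the other R6/2 mice. Insig2 in R6/2 mouse 65 was 8.68, against 8.88 to 8.91 in the others. Ebp in wild-type mouse 63 was 7.20, against 7.19 in the others, whose deposited values were identical, so the gap is tiny on the log2 scale.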

How the results depend on the processing

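Against 9 falls and 4 rises among the cholesterol genes as reported, 7 to 9 falls and 0 to 4 rises were called with 1 array left out, and 6 to 10 falls and 0 to 5 rises with the other alternatives, not always of the same genes. Without moderation no rise was called, and with the cortical or the oligodendrocyte marker mean as covariate 1 was; the cause was not tested, but a covariate also takes a residual degree of freedom. The 6 other sterol and lipid genes called lower became 3 with probe sets averaged and 1 with the cortical covariate, and the 6 called higher became 3 without moderation. Over all genes, the 1127 called lower became 580 without moderation and 448 with the cortical covariate. The 1654 called higher became 819, 692 and, with the oligodendrocyte covariate, 942, and ranged from 921 (without wild-type mouse 48) to 1579 (without wild-type mouse 42) with 1 array left out.

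Sign changes occurred only in cholesterol genes that had not passed the test. Quantile normalization gave -0.0287 for Mvk, -0.0201 for Pmvk and -0.0104 for Tm7sf2. Averaging probe sets gave -0.0309 for Mvk, 0.0124 for Hsd17b7 and 0.0354 for Sc5d, and array weights gave -0.0061 for Mvk. Leaving out _s_at and _x_at sets gave 0.0791 for Hsd17b7. The cortical covariate gave 0.0415 for Ebp and 0.0994 for Nr1h3, and the oligodendrocyte covariate 0.0724 for Cyp51. With 1 array left out, Mvk ranged from -0.0584 to 0.0332, Pmvk from -0.0557 to 0.089 and Tm7sf2 from -0.0177 to 0.0666. No paired analysis was possible because the groups share no mouse numbers.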
